A study of Homo sapiens with 3 samples.

Results

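FOXA2 binding was described at 9 genes known as Wnt targets or as markers of intestinal stem cells, TCF7L2, LGR5, AXIN2, MYC, CCND1, ASCL2, EPHB2, PROM1 and CD44. The genes were chosen by name, with earlier results of these data known. A peak was counted for a gene when its midpoint lay in a fixed hg19 interval. That interval was the gene with 50 kb at each side, or, for MYC, a stretch from its upstream 8q24 enhancers to 50 kb beyond the gene, except that the CCND1 interval ended inside its gene. The intervals covered 2031 kb in all and held 108 of the 63949 FOXA2 peaks of replicate 1 and 51 of the 26907 peaks of replicate 2. FOXA2 had been immunoprecipitated with the antibody sc-6554 from Caco2, an established human colorectal adenocarcinoma line grown in low-glucose DMEM with serum, in 2 replicates. Each replicate's peaks were called against the single input library of the same line, made without antibody. All samples were of the same line and the labels name no treatment, so the design holds no comparison of conditions, and the values below are descriptions without a test of a condition. The peak lists hold no expression values, so the cell type was taken from the labels.

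FOXA2 is a forkhead transcription factor of endoderm-derived epithelia that binds DNA in compact chromatin, mostly at enhancers. In the Wnt pathway, a ligand stabilises beta-catenin, which enters the nucleus and activates target genes through DNA-bound TCF/LEF factors. In the intestine this signal keeps the crypt stem cells dividing, and most colorectal tumours activate it by losing APC, part of the complex that degrades beta-catenin. Caco2 cells carry a truncated APC.

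The promoter sequences of 4 of the 9 genes, TCF7L2, EPHB2, PROM1 and CD44, were matched by symbol in a RefSeq table of build GRCh38.p14, with 10 windows between them. Each window runs from 250 bases before to 50 bases after an annotated start. Those of TCF7L2 and CD44 that held a forkhead motif are shown, with the motif in capitals, and with them the window of PROM1 at its most upstream start, since a FOXA2 peak lay at that end of the gene.
TCF7L2, an internal start, chr10:113126383-113126682, plus strand: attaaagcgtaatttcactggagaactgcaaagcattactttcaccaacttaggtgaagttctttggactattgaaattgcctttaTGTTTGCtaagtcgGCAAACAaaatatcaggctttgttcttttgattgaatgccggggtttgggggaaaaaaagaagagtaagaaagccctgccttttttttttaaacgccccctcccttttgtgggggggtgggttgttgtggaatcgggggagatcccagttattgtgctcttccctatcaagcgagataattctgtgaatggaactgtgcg
CD44, chr11:35138921-35139220, plus strand: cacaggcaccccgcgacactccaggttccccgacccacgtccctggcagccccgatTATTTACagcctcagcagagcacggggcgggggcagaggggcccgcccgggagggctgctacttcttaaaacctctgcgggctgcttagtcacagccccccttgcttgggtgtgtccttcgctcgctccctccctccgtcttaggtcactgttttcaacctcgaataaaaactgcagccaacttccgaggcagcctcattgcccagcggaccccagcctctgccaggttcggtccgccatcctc
PROM1, most upstream start, chr4:16083974-16084273, minus strand: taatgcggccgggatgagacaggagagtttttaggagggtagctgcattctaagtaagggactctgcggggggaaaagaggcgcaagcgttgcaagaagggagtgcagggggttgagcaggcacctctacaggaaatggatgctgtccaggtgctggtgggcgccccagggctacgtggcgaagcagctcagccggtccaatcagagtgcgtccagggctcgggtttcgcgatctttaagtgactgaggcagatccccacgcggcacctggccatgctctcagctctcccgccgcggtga
The forkhead motif was searched on both strands as TGTTTAC, the form most often given for the family. The related letters TATTTAC were searched too. So were the letters TGTTTGC in the same way. The last form searched was TATTTGC, and like TGTTTGC it shares the letters TTTG with the TCF/LEF motif below. These forms occurred in 12.1% of the 35116 RefSeq promoter windows. In the TCF7L2 window, TGTTTGC began at -164 on the plus strand and its reverse complement at -150, counted from the annotated start. In CD44, TATTTAC began at -194. Neither of the other TCF7L2 windows, nor any of PROM1 or EPHB2, held these letters. The TCF/LEF motif was searched as CTTTGAT, and the related letters CTTTGAA were searched with it. These occurred in 6.86% of all windows and, among the 10, in that of the most downstream PROM1 start, where CTTTGAT began at -179. The peaks are on hg19 and the promoters on GRCh38.p14, so no peak was placed on a promoter base by base.

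FOXA2 sites found in both replicates lay in 8 of the 9 intervals, and the exception was ASCL2. Many windows of these lengths held at least 1 shared site too. Their share was 72.2% at the length of the TCF7L2 interval, 66% at that of LGR5, 49.9% at AXIN2, 80.7% at MYC and 30% at CCND1. It was 43.5% at the length of ASCL2, 71.3% at EPHB2, 62.6% at PROM1 and 59.5% at CD44. A site was called shared when a replicate 1 peak overlapped a replicate 2 peak by at least 1 bp, and it is given at its replicate 1 position. The score of a peak is the authors' own value, read as its tag count per 10000000 tags of the library, and is called normalised tags here. The intervals held 47 shared sites. That is 2.31 per 100 kb, against 0.861 per 100 kb over the windows of 1 Mb that held any peak in the whole series. The intervals were set around genes and the windows were not, so they may differ in gene content, whose part was not tested. The genes were also chosen with earlier results of these data known, so the densities and window shares given here do not rest on an independent choice. With peaks of a score of at least 10 in each list, the intervals held 31 of the 47 shared sites, against 15202 of 24345 in the whole series. In the upper 50% of each list by score they held 25, against 12559 in the whole series. The window shares given below for each gene belong to the counts without these limits, and the limited counts per gene were not set against windows.

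Of the replicate 1 peaks in the intervals, 43.5% were shared (95% Wilson interval 34.6% to 52.9%), against 38.1% of all replicate 1 peaks. Of those of replicate 2, 47 of 51 or 92.2% were shared (81.5% to 96.9%), against 90.5% of all replicate 2 peaks. Both Wilson intervals contain the value of the whole series, but they count peaks as independent and do not measure the spread between genes. By gene, the shared percent of replicate 1 peaks ran from 0% at ASCL2, with 2 peaks, to 51.9% at MYC, with 27. The shared sites had a median mean score of 14 normalised tags (interquartile range 10.2 to 32), against 14.5 (9.5 to 24.5) over all 24345 shared sites. Mean scores of 44 or more put a site in the upper 10%, which 6 of the 47 reached, or 12.8%, against 10.1% of all shared sites. With peaks of a score of at least 10 in each list, 66% of replicate 1 peaks in the intervals were shared, against 59% in the whole series, and the median mean score was 23, against 21. In the upper 50% of each list by score, 42.4% were shared, against 39.3%, and the median mean score was 32, against 24. The centres called in the replicates lay a median of 14 bp apart and at most 94 bp, against 15 and 136 bp over all shared sites. The overlap that defines a shared site itself limits this distance.

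**Figure D1:**
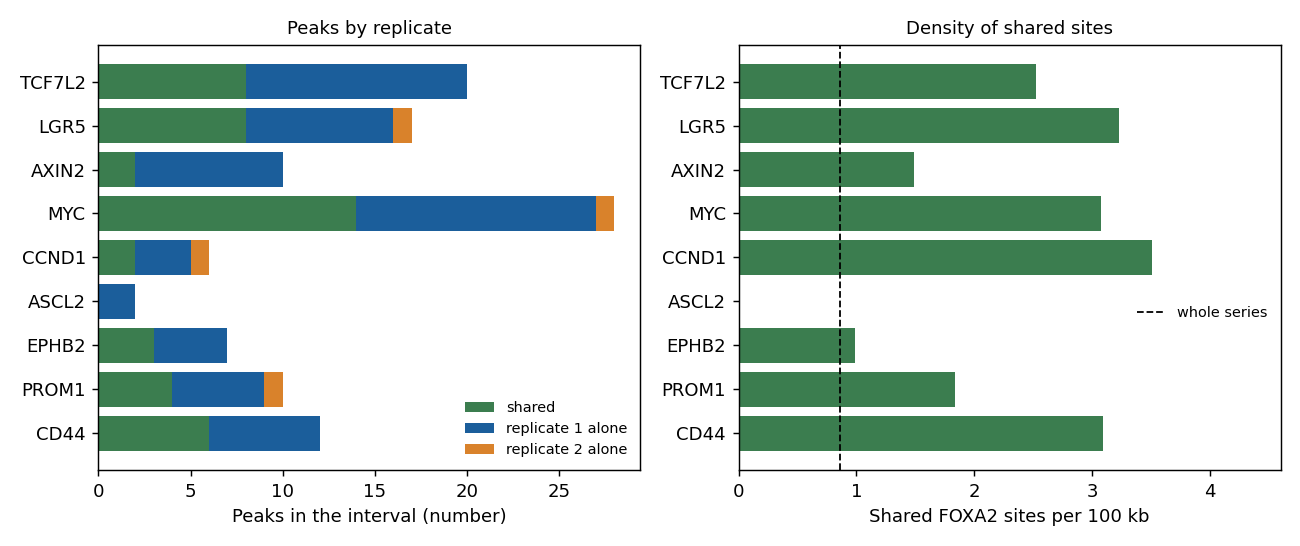
Left, peaks in each interval (number), split into sites shared by the replicates and peaks of replicate 1 or replicate 2 alone. Right, shared sites per 100 kb of interval, with the density of the whole series (0.861) as a dashed line; ASCL2 has none, EPHB2 (0.984) lies near the line and CCND1 (3.51), whose interval is the shortest, is the highest.

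TCF7L2 encodes a TCF/LEF factor through which beta-catenin acts in the intestine. Its 318 kb interval held 20 peaks in replicate 1 and 8 in replicate 2, and all 8 of replicate 2 were shared. At least 8 shared sites were found in 8.51% of windows of the same length. With a score of at least 10 in each list TCF7L2 had 4 shared sites, and in the upper 50% of each list it had 3. The strongest, 143 kb into the gene at chr10:114853346-114853468, scored 75 in replicate 1 and 55 in replicate 2, a mean of 65 ± 14.1 (SD, n = 2). At chr10:114847268-114847390, 6.08 kb before it, the scores were 60 in replicate 1 and 32 in replicate 2 (46 ± 19.8, n = 2). Both belong to the upper 10% of all shared sites. Another site, 19.6 kb into the gene, scored 42 in replicate 1 and 22 in replicate 2.

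The remaining 5 TCF7L2 sites had mean scores of 6.5 to 14. They lay 4.3 kb upstream of the gene and 1.6, 69.6, 110 and 124 kb into it. No shared site lay in the gene beyond 143 kb, although the gene span is 218 kb long. The internal start whose promoter window held the forkhead motif lies beyond that point, by its distance from the first start on GRCh38.p14. Around the 5′ end, replicate 1 had 7 peaks within 10 kb, of which the 2 with replicate 2 partners scored 10 and 6 in replicate 1 and 8 and 7 in replicate 2. The highest peaks of replicate 1 alone scored 11, at the 5′ end itself and 3.7 kb into the gene. The peaks around the start were thus weaker than the strongest ones inside TCF7L2.

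LGR5 encodes a receptor for R-spondins, ligands that strengthen Wnt signalling, and marks the cycling stem cells at the crypt base. The interval of 248 kb held 16 peaks in replicate 1 and 9 in replicate 2, of which 8 were shared. Of windows of that length, 4.91% had as many shared sites. In the upper 50% of each list LGR5 had 5. A site at the 5′ end of the gene, chr12:71832909-71833031, scored 40 in replicate 1 and 28 in replicate 2 (34 ± 8.49, n = 2). Distances here are read from interval bounds given in kb, so this site lies within about 1 kb of the start. A weaker site lay 1.87 kb further, with 10 in replicate 1 and 15 in replicate 2.

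The highest LGR5 site lay 97.8 kb into the gene at chr12:71930784-71930906 and scored 48 in replicate 1 and 31 in replicate 2 (39.5 ± 12, n = 2). A neighbour 0.628 kb before it scored 10 in replicate 1 and 13 in replicate 2. The remaining 4 sites, 27.4 kb upstream and 53.6, 110 and 128 kb into the gene, had mean scores of 13.5 to 14.5. Neither LGR5 site above 30 reached the upper 10%. The highest peaks of replicate 1 alone scored 8, and that of replicate 2 alone scored 7. ZFC3H1 was the only protein-coding neighbour within 50 kb in the RefSeq table, and no shared site lay downstream of LGR5.

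AXIN2 encodes a scaffold of the beta-catenin destruction complex, is induced by Wnt and feeds back on it. Its 134 kb interval held 10 peaks in replicate 1 but 2 in replicate 2, both shared, and 27.9% of windows of that length had at least 2 shared sites. There was 1 shared site with a score of at least 10 in each list, in the upper 50% of each list, or with 10 kb at each side of the gene. The site 26.7 kb upstream of the gene, chr17:63584607-63584729, scored 17 in replicate 1 and 8 in replicate 2 (12.5 ± 6.36, n = 2). The site 19.1 kb into it, chr17:63538818-63538940, scored 11 in replicate 1 and 12 in replicate 2. Neither was a strong site.

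The other 8 AXIN2 peaks were in replicate 1 alone, and 6 of them lay within 5.5 kb of the 5′ end, with scores of 5 to 11. The nearest replicate 2 peak to any of these 6 was 13750 bp away. Over the whole list, 7.13% of replicate 1 peaks with a score of 5 and 48.4% of those with a score of 11 were shared. The strongest AXIN2 peak of either replicate was also in replicate 1 alone. It scored 23, about 60.2 tags, at chr17:63527670-63527792, 30.3 kb into the gene, and the nearest replicate 2 peak was 11144 bp away. Of all 558 replicate 1 peaks with a score of 23, 90.5% were shared (95% Wilson interval 87.8% to 92.7%).

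MYC encodes a transcription factor of growth and division, and the stretch of 8q24 before it holds enhancers that act on it over long distances and a known colorectal cancer risk region. With 454 kb, its interval was the longest and held the most peaks, 27 in replicate 1 and 15 in replicate 2, with 14 shared. Of windows of that length, 3.09% held at least 14. With a score of at least 10 in each list MYC had 8 shared sites, and in the upper 50% of each list 7. The enhancers were part of the reason for the choice of this interval. Of the 14 sites, 11 lay more than 150 kb before the 3′ end of the gene, from which distances are counted here.

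These 11 upstream MYC sites formed 3 groups when sites no more than 20 kb apart were joined, a limit chosen after seeing the sites. The outermost group held 2 sites. The one 341 kb away, chr8:128413258-128413380, was the strongest at MYC, with 47 in replicate 1 and 56 in replicate 2 (51.5 ± 6.36, n = 2), and the centres called in the replicates were identical. The next, 331 kb away, scored 26 in replicate 1 and 21 in replicate 2. The middle group had 6 sites from 272 to 247 kb away. A close pair in it, 1.02 kb apart, scored 35 and 39 in replicate 1 and 33 and 31 in replicate 2, while the other 4 had mean scores of 5.5 to 9.5. The innermost group had 3 sites, the farthest of them 168 kb away, with mean scores of 13.5 to 20. A gap of 13.7 kb lay within the middle group and 1 of 12.5 kb within the innermost, so a limit of 10 kb would split both.

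Close to the gene the MYC sites were weak. Those 5.9 and 0.1 kb before the 3′ end and 40.9 kb beyond it had mean scores of 8.5, 10 and 10. The RefSeq gene is 7.52 kb long. The site at 5.9 kb thus lay near its 5′ end and that at 0.1 kb at its 3′ end, within the precision of bounds in kb. Between the innermost group and these lay 145 kb without a shared site, in which replicate 1 alone had 8 peaks. The strongest unshared peaks of both replicates stood side by side 171 kb before the 3′ end. Replicate 1 scored 26 and replicate 2 scored 28 there, with centres 201 bp apart, and under a limit of 500 bp between centres they count as a shared site.

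CCND1 encodes cyclin D1, which drives entry into the division cycle. The given interval of 57 kb starts 50 kb before the gene but ends 7 kb after its start, short of the RefSeq gene length of 13.3 kb, so nothing downstream was counted. It held 5 peaks in replicate 1 and 3 in replicate 2, with 2 shared, and 11.5% of windows of that length had at least 2. Either score limit, or 10 kb in place of 50 kb before the gene, left 1. The site 38.7 kb upstream, chr11:69416239-69416361, scored 29 in replicate 1 and 17 in replicate 2 (23 ± 8.49, n = 2). At the 5′ end, a site scored 8 in both replicates. The highest peak found in a single replicate was one of replicate 2 with a score of 6, 9.7 kb upstream. With the interval extended to 50 kb beyond the gene it held 3 shared sites.

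ASCL2 encodes a transcription factor that sets the fate of crypt stem cells. Its 104 kb interval held no shared site, as did 56.5% of windows of that length. Replicate 1 had 2 peaks, both with a score of 5, 32 kb upstream and near the downstream edge. Replicate 2 had none, and its lowest score over the whole list was 5, so weaker binding was not detectable there. Both peaks lay outside the gene, and the RefSeq table lists C11orf21 and TSPAN32 as protein-coding neighbours within 50 kb.

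EPHB2 encodes an ephrin receptor that keeps crypt cells in their place. In 305 kb it had 7 peaks in replicate 1 and 3 in replicate 2, and the 3 were shared. That gives 0.984 per 100 kb, and 37.9% of windows of that length held as many. In the upper 50% of each list EPHB2 had 1. The strongest lay 8 kb upstream of the gene, chr1:23028987-23029109, with 39 in replicate 1 and 30 in replicate 2 (34.5 ± 6.36, n = 2). Scores were 23 in replicate 1 and 11 in replicate 2 at 6.8 kb into the gene, and 13 in replicate 1 and 10 in replicate 2 at 81.3 kb. The highest peaks found in a single replicate scored 7 in replicate 1, 29.6 kb upstream and 116 kb into the gene. The RefSeq gene is 211 kb long and the interval leaves 205 kb for it, so the positions relative to this gene's start are less certain than at the other genes.

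PROM1 encodes CD133, a membrane glycoprotein used as a marker of stem cells and of colon tumour cells. Its interval of 217 kb held 9 peaks in replicate 1 and 5 in replicate 2, with 4 shared, and 19% of windows of that length had at least 4. The highest, 46.3 kb into the gene at chr4:16039673-16039795, scored 32 in both replicates. The site at the upstream end of the gene, chr4:16085997-16086119, scored 18 in replicate 1 and 10 in replicate 2 (14 ± 5.66, n = 2), with identical centres. The promoter window printed above for that end held none of the forkhead letters, which says nothing of the peak's own bases, since those were not read. The other sites lay 54.4 kb into the gene, with 17 in replicate 1 and 19 in replicate 2, and 45.1 kb upstream, with 23 in replicate 1 and 22 in replicate 2. A peak of replicate 2 alone scored 14 and lay 50.2 kb into the gene, between shared sites.

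CD44 encodes a hyaluronan receptor whose variant isoforms are made in crypt stem cells. Its interval of 194 kb held 12 peaks in replicate 1 and 6 in replicate 2, and all 6 were shared. Of windows of that length, 6.83% had as many. The strongest site of all 9 intervals lay 64.3 kb into the gene at chr11:35224280-35224402, with 112 in replicate 1 and 46 in replicate 2 (79 ± 46.7, n = 2). The site at chr11:35212376-35212498 scored 52 in replicate 1 and 36 in replicate 2 (44 ± 11.3, n = 2). The one at chr11:35194851-35194973 scored 41 in replicate 1 and 48 in replicate 2 (44.5 ± 4.95, n = 2). These 3 were in the upper 10%, more than at any other of the genes.

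Together with sites of 8 and 27 in replicate 1 and 10 and 19 in replicate 2, the strong CD44 sites formed a row of 5 over 36.9 kb inside the gene, from 27.4 to 64.3 kb after its 5′ end. The row rests on the same limit of 20 kb as the MYC groups, and gaps of 12.7 and 11.9 kb lay within it. The sixth site, 37.1 kb upstream, scored 6 in both replicates. The peak nearest to the 5′ end of CD44, whose promoter window holds a forkhead motif, was one of replicate 1 alone with a score of 4, 6.5 kb inside the gene. Another peak of replicate 1 alone, 79.1 kb into the gene, scored 23, and its nearest replicate 2 peak was 14741 bp away.

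**Figure D2:**
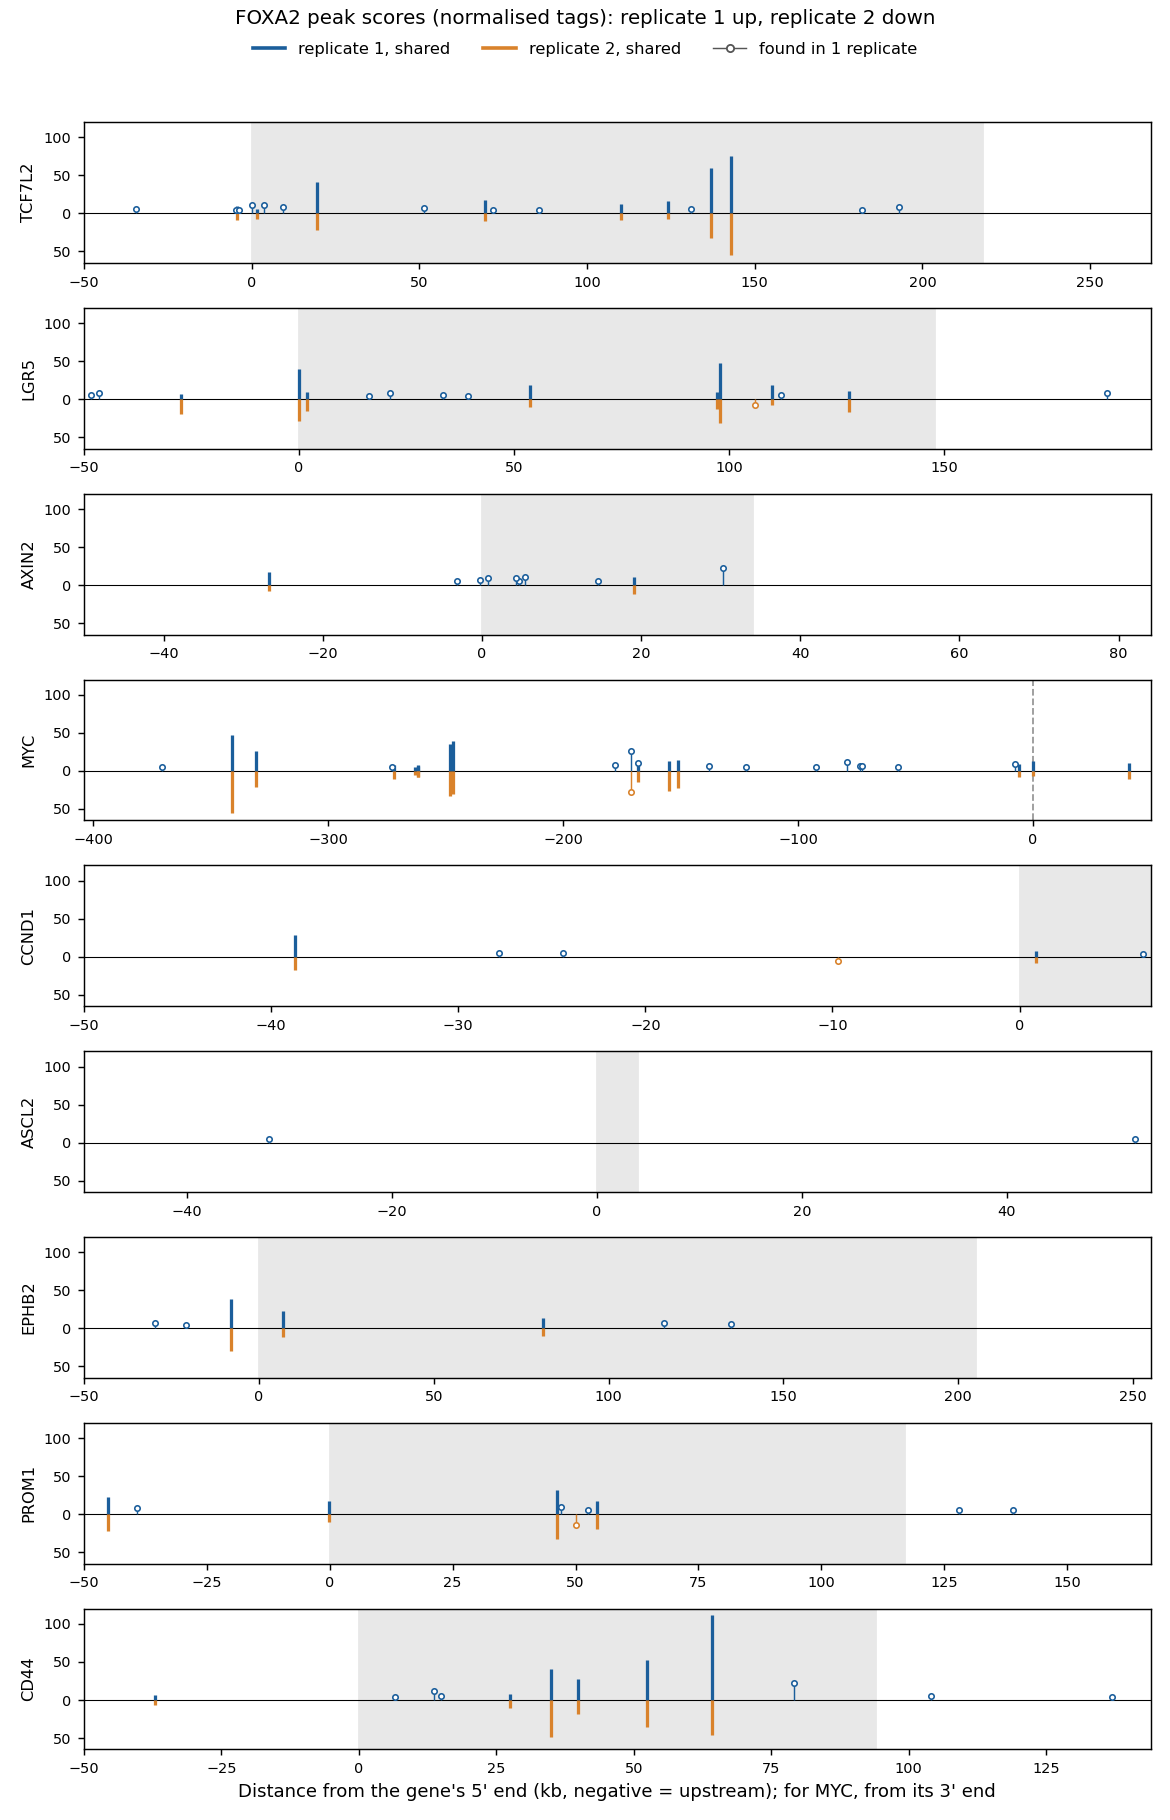
Scores of FOXA2 peaks (normalised tags, replicate 1 upwards, replicate 2 downwards) against the distance from each gene's 5′ end in kb, or from the 3′ end for MYC (dashed line). Thick bars are shared sites, thin bars with open circles are peaks of a single replicate, and grey is the gene span; the CD44 row reaches 112 in replicate 1, the strong MYC sites lie far upstream, and AXIN2 shows peaks of replicate 1 alone at its start.

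Most sites lay inside the gene where the interval was built around it. In the 7 intervals built as a gene with 50 kb at each side, the gene spans held 23 shared sites in 820 kb, or 2.8 per 100 kb, and the flanks held 8 in 700 kb, or 1.14 per 100 kb. Of these 23, TCF7L2 had 7, LGR5 6 and CD44 5. For all replicate 1 peaks the densities were 6.1 per 100 kb in the gene spans and 3.71 in the flanks. The share of all shared sites that lie inside genes was not counted, so whether these genes differ from others was not tested. Of the 47 sites, 25 had another shared site within 10 kb, or 53.2%, against 39% of all shared sites. Without MYC, 13 of 33 sites, or 39.4%, had such a neighbour. Shared sites were denser in the intervals than in the whole series, and the part of density in these shares was not tested. MYC gave 12 of its 14, TCF7L2 and LGR5 4 each, CD44 3 and PROM1 2. The sites of AXIN2, CCND1 and EPHB2 had no such neighbour.

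The log2 ratio of replicate 1 to replicate 2 scores had a median of 0.17 and an SD of 0.63 over the 47 sites, against 0.26 and 0.62 over all shared sites. Replicate 1 was higher at 26 sites, replicate 2 at 16, and 5 were equal, while replicate 1 was higher at 63.7% of all shared sites. The counts by gene follow from the same pair of replicates, and whether the genes differ in this was not tested. At TCF7L2, replicate 1 was higher at 7 of 8 sites (median log2 ratio 0.77). At MYC it was higher at 5 of 14 and lower at 7 (median -0.05), and at LGR5 it was higher at 4 and lower at 4 (median 0.07).

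Single sites differed between the replicates in both directions. The LGR5 site 27.4 kb upstream scored 7 in replicate 1 and 20 in replicate 2, a log2 ratio of -1.51 with a counting error of 0.42. Only 0.538% of all shared sites had a ratio as far from the median. The MYC site 155 kb before the 3′ end scored 13 in replicate 1 and 27 in replicate 2, a log2 ratio of -1.05 with a counting error of 0.33, and 3.29% of all shared sites were as far out. The strongest CD44 site had the highest ratio, 1.28 with a counting error of 0.19, which 9.55% of all shared sites matched or passed in distance. Counting errors were taken from the tags the scores stand for, 2.62 per unit in replicate 1 and 1.58 in replicate 2, and with 2 replicates the spread of a single site is itself poorly known.

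**Figure D3:**
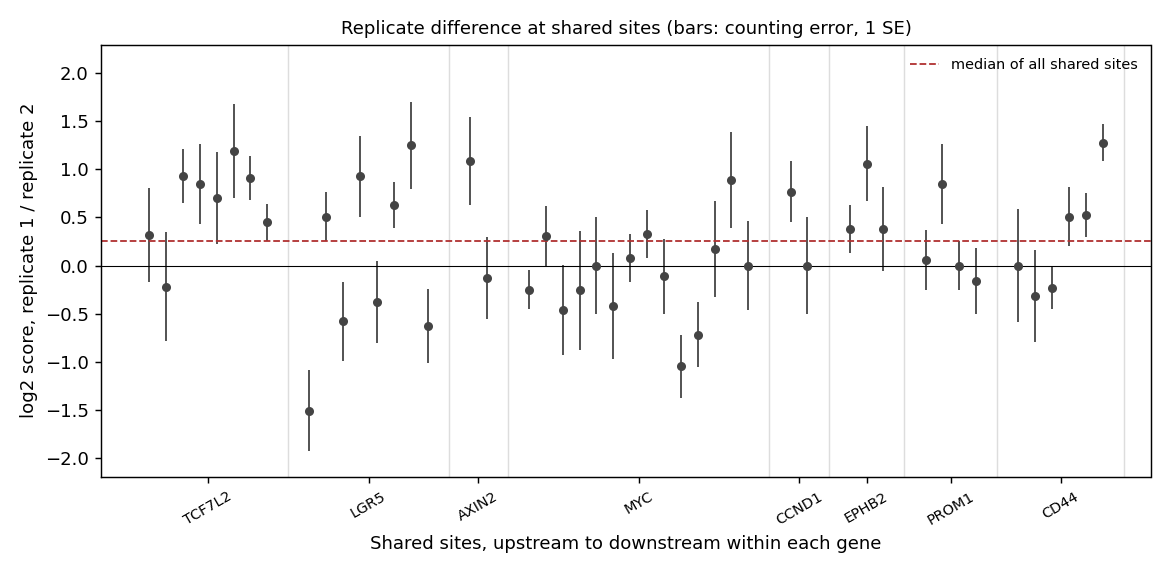
The log2 ratio of replicate 1 to replicate 2 scores at the 47 shared sites (points) with 1 SE of counting error (bars), grouped by gene and ordered from upstream to downstream within it. The dashed line is the median of all shared sites, 0.26; TCF7L2 points lie mostly above it, those of MYC mostly below it, and the lowest point is the upstream LGR5 site at -1.51.

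Peaks found in a single replicate were weak with few exceptions. The 61 of replicate 1 had a median score of 6, equal to that of all peaks of replicate 1 alone, and 58 of them scored 12 or less. The 3 above that are the ones at AXIN2, CD44 and MYC given before. The 4 of replicate 2 scored 6 to 28, and 1 of them, the MYC peak of 28, had a replicate 1 peak within 500 bp. Replicate 1 held 26183147 tags and replicate 2 held 15756702, and the part of this difference in depth in the peaks missing from replicate 2 was not tested.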

How the data were processed

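The data are FOXA2 ChIP-seq peak lists of 2 replicates of Caco2 cells. Per the submitters' processing notes, the build is hg19, and Bowtie 1.0.0 and HOMER 1.2 are named. The authors called peaks with findPeaks in factor style, for each replicate apart and against input, asking for 4-fold more tags than in the input and in the 10000 bp around, per the file headers. The deposited score is a whole number, read as tags scaled by the authors to 10000000 per library, since its sum came within 0.45% (replicate 1) and 0.196% (replicate 2) of the tags in peaks per the file headers.

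Shared sites and interval counts were computed in Python 3.11.15 with numpy 2.4.6, pandas 2.3.3 and scipy 1.17.1, and the overlap step was tested on simulated lists. Coordinates are 1-based hg19. Gene spans are the intervals less 50 kb at each side, which differ from RefSeq gene lengths by up to 1.2 kb, except at ASCL2 (1.91 kb longer) and EPHB2 (-5.66 kb), and gene orientation was taken from RefSeq or general knowledge. Besides those named at LGR5 and ASCL2, RefSeq lists protein-coding neighbours within 50 kb at 4 genes. They are FGF19, LTO1 and LOC124902704 at CCND1, C1QB and LACTBL1 at EPHB2, FGFBP1 and FGFBP2 at PROM1, and SLC1A2 at CD44. TCF7L2 and AXIN2 had none, and neighbours of MYC were not looked up. Which gene a site acts on was not tested. Windows for the background were tiled over the 2828 windows of 1 Mb with a peak. Each gene is given by its strongest shared site where it had one, its sites in the upper 10% of all shared sites and the highest-scored of its peaks found in a single replicate. Wilson intervals, at 95%, and counting errors cover counting only. Whether the replicates were separate cultures is not given in the labels, so their spread may be technical. The members and lists were chosen with earlier results of these data known. The planned motif search inside peaks and the count over other Wnt pathway genes needed hg19 sequence and gene coordinates and were not run.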

Additional observations from a re-analysis of the deposited data

How the results depend on the processing

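The overlap definition changed little. There were 44 shared sites when 50% of both peaks had to overlap, 47 and 50 when midpoints could lie 100 and 500 bp apart, 42 with 10 kb at each side of the genes and 48 with CCND1 extended, against 47. A stricter score did change it. With peaks of a score of at least 10 there were 31 shared sites, 66% of replicate 1 peaks were shared and the median mean score was 23. The upper 50% of each list gave 25 shared sites with a median mean score of 32, and 42.4% of replicate 1 peaks were shared. These shifts follow from removing weak peaks. Without one replicate, the peaks of the other numbered 51 to 108, with a median score of 8 to 14. Per gene, 4 of 9 counts moved by more than 1.5 times at a score of at least 10 (TCF7L2, AXIN2, MYC and CCND1). In the upper 50%, 6 of 9 did, the same genes with LGR5 and EPHB2, and with 10 kb flanks 2 of 9, AXIN2 and CCND1. Over the whole series, the 24345 shared sites fell to 15202 at a score of at least 10 and to 12559 in the upper 50%. Both of these falls also exceed 1.5 times, and whether the 9 genes differ from others in this was not tested. ASCL2 had no shared site under any of the 7 settings. Moving the grid of windows by 50% of their length, a setting chosen after seeing the data, moved none of the 9 window shares by more than 1.5 times. No paired analysis was possible because the design has a single immunoprecipitated group. The motif alternatives were not run, since the peaks' bases were not read.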
